A study of Mus musculus with 9 samples.

Results

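The genes described here encode receptors of the C-type lectin, CD300, LILR, Siglec, Fc gamma, SIRP, PILR and TREM families, most of which sit on myeloid cells. The rule for membership uses gene symbols and takes the probe sets with exactly 1 symbol that begins with one of these family names. The rule found 65 genes on 66 probe sets, of 19930 genes in all. By the same rule it also takes in lectin-like genes that are not myeloid receptors, such as the Clec2 ligands and several secreted or endothelial proteins, and these are described separately. Adipose stromal cells (ASCs) of the mammary gland of female Balb/c mice were profiled on 9 Affymetrix Mouse Gene 1.0 ST arrays, 3 from each of 3 stages. The stages were nulliparous mice aged 8 weeks that had not been with males (ASC-Ns), lactating mice on day 5 (ASC-Ls) and involuting mice on day 3 (ASC-Is). Involution, the regression of the gland after weaning, was started by removing the pups. By the study's methods, lactating and involuting mice had been mated at 8 weeks and were therefore older. Stage and age cannot be told apart in the comparisons with ASC-Ns. Involuting mice had also nursed for longer than lactating mice and were sampled later after giving birth. In ASC-Is against ASC-Ls, stage cannot be told apart from time since birth or length of nursing. The labels describe stroma separated by enzyme digestion and centrifugation with Trizol extraction, while the study's methods describe RNA from low passage cultures purified with RNeasy columns. These are therefore mixed cell preparations or cultures from them. The labels call the 3 arrays of a stage biological replicates, and the study speaks of multiple mice. No source used here says which mice stand behind each array. The p-values therefore measure the spread between preparations, which may in part be technical.

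These receptors recognize sugars, lipids, antibody complexes and products of dying cells. Most activating members carry little or no signaling sequence of their own and pair with the adaptors Tyrobp (DAP12) or Fcer1g, whose tyrosine motifs recruit the kinase Syk, whereas inhibitory members carry motifs in their own tails that recruit the phosphatases Ptpn6, Ptpn11 and Inpp5d. Many families hold both kinds of receptor side by side in the genome, and macrophages, which help clear dying epithelium from the involuting gland, carry many of them.

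The promoters of 3 members that differed between stages are shown, in which a short site bound by PU.1, the factor that directs the myeloid program, was searched for. Fcgr4 and Cd300ld were chosen because they hold the letters of this site, and Clec4d because it differed most. Each is the stretch of 250 bases before the annotated start in RefSeq for GRCm38.p6, read 5′ to 3′ on the strand of the gene, with a match to GAGGAAGT on either strand in capitals. The stretch of Fcgr4 lies at chr1:171018676-171018925 (plus strand), that of Cd300ld at chr11:114989887-114990136 (minus strand) and that of Clec4d at chr6:123261857-123262106 (plus strand).
Fcgr4: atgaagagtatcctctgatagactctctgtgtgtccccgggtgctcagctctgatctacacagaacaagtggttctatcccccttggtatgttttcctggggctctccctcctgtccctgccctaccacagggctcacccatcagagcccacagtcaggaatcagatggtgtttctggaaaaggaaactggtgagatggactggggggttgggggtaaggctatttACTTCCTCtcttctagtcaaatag
Cd300ld: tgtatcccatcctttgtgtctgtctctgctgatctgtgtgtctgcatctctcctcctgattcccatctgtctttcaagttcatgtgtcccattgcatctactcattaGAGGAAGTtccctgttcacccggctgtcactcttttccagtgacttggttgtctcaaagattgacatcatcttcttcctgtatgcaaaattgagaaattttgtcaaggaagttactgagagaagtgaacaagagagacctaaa
Clec4d: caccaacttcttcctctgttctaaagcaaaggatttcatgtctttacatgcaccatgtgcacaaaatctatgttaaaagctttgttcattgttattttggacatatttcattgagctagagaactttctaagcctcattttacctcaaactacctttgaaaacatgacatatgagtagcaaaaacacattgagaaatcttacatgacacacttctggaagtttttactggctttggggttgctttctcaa
In Fcgr4 the match runs on the strand opposite to the gene and begins 24 bases before the start. In Cd300ld it runs on the strand of the gene and begins 143 bases before the start. Clec4d, the member that differed most between stages, holds no match in this window. Over windows of 300 bases, from 250 before to 50 after the start, these letters occurred in 4 of the 51 member genes with a promoter in the table (7.84%), in 2 of the 10 such genes among the 12 that differed between ASC-Is and ASC-Ls, and in 997 of all 27025 genes (3.69%). The other 2 members with a match were Lilra6 and Cd300lf. A match is a description of the letters and not a measured binding site.

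The values are log2 signals that the authors normalized between arrays, and array medians lay within 0.0765 of each other. Arrays of 1 stage correlated across genes with r from 0.956 to 0.990, and genes are not independent replicates. As a rough guide to low signal, the 95th percentile of 1194 olfactory and vomeronasal receptor genes was 4.92. The mean of 39 of the 65 receptor genes lay above this level and that of 26 lay at or below it, and 49 exceeded it in at least 1 array, which is no test of detection. The 9 stromal markers were bright on all arrays (list means from 10.00 to 11.35), whereas the 9 measured adipocyte markers averaged 5.64 to 5.87. Replicate 2 of ASC-Is and replicate 2 of ASC-Ls stood apart, with luminal epithelial marker means of 7.75 in the ASC-I array and 9.09 in the ASC-L array, against 5.64 to 6.96 on the remaining arrays, and replicate 3 of ASC-Ns had the lowest macrophage marker mean of its stage. The counts of receptor genes are given with and without these arrays. Most single genes and the marker lists are given with all arrays only.

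A share of the activating and inhibitory receptors was higher in involution than in lactation. In ASC-Is against ASC-Ls, 12 of the 65 genes (18.5%) had an unadjusted p under 0.05 in limma and at least a 1.5-fold difference, the limits applied here, and all 12 were higher in ASC-Is. The word rose is used below only of genes past these limits. Of all 19930 genes, 0.406% were higher and 0.0753% were lower past the same limits, and 0 receptor genes were lower. The 12 genes were the activating receptors Clec4d, Clec4n, Fcgr3, Fcgr4, Trem1, Cd300ld and Cd300c2, and Lilr4b, Lilrb4a, Fcgr2b, Clec12a and Pilra, which were grouped with the inhibitory receptors. The median difference over the 65 genes was 0.16 on the log2 scale, against -0.01 over all genes, and 0.05 over the 53 genes that did not pass. In bulk RNA of this kind, fewer cells of a type and less RNA per cell cannot be told apart. After Benjamini-Hochberg adjustment over all genes, 0 genes passed at 0.05 in any comparison by limma (lowest value among the receptors 0.998), with 359 genes (1.8%) and 15 of the receptors at an unadjusted p under 0.05 in this one.

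**Figure D1:**
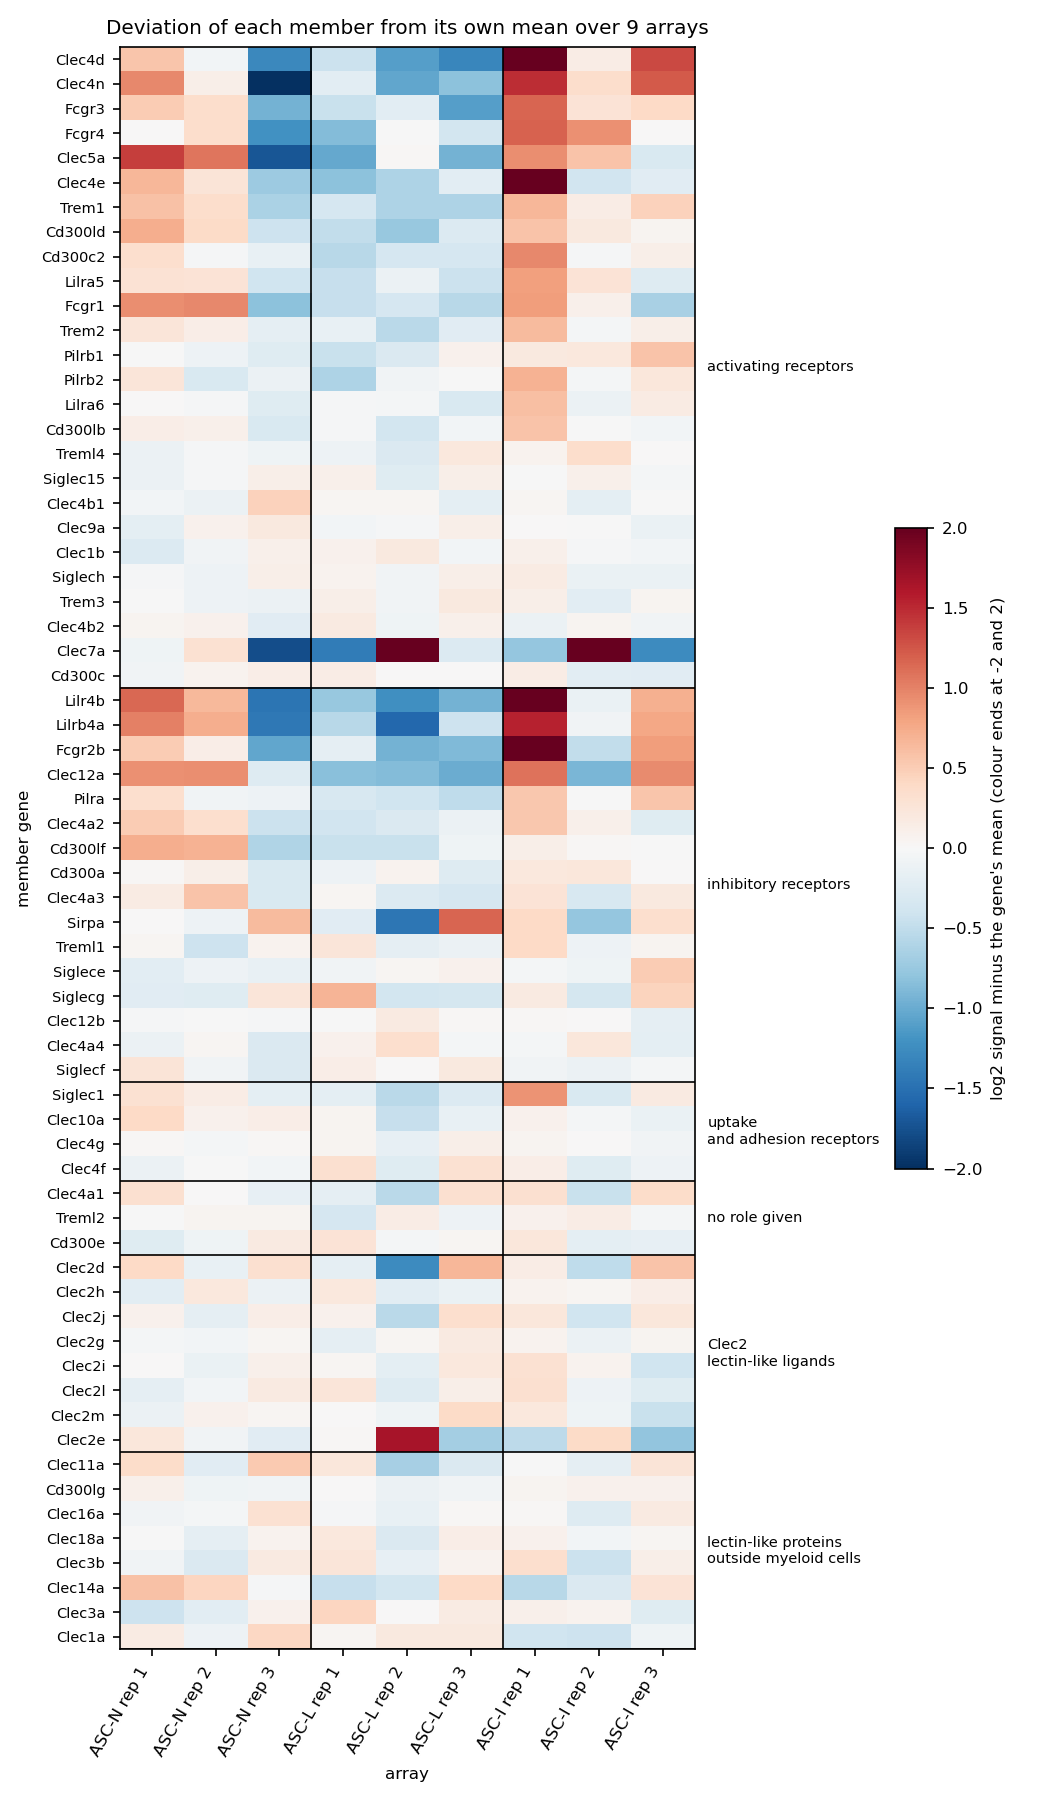
Log2 signal of the 65 receptor genes (rows, grouped by role and ordered by the difference between ASC-Is and ASC-Ls) on the 9 arrays (columns), as the deviation from each gene's own mean, with the color ending at -2 and 2. The upper rows of the activating and inhibitory groups are red in ASC-Is and blue in ASC-Ls, most deeply in ASC-I replicate 1, while the Clec2 ligands and the proteins outside myeloid cells show no such shift.

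Among the lectin receptors that signal through Fcer1g, Clec4d and Clec4n differed most. Clec4d, also called MCL, recognizes mycobacterial glycolipids and is expressed together with Clec4e. Its log2 signal was 7.58, 6.97 and 5.75 in ASC-Ns, 6.60, 5.93 and 5.73 in ASC-Ls, and 9.20, 7.18 and 8.35 in ASC-Is. Every ASC-I array lay above every ASC-L array, and the rise was 4.45-fold (log2 difference 2.16, SE 0.57). Clec4n, or Dectin-2, binds mannose-rich sugars of fungi. Its signal was 9.21, 8.36 and 6.21 in ASC-Ns, 8.04, 7.21 and 7.43 in ASC-Ls, and 9.72, 8.60 and 9.48 in ASC-Is. These ASC-I and ASC-L arrays did not overlap either, and the rise was 3.26-fold (log2 difference 1.70, SE 0.67). Clec4e, or Mincle, senses the nuclear protein Sap130 released from dying cells. It was 6.25, 5.84 and 4.86 in ASC-Ns, 4.77, 4.96 and 5.37 in ASC-Ls, and 7.65, 5.20 and 5.35 in ASC-Is. Of the ASC-I arrays, replicate 1 alone stood above those of ASC-Ls by more than 1 unit, the stages overlapped, and the difference of 1.04 (SE 0.62) did not pass.

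The 3 Fc gamma receptor genes that lie next to each other on chromosome 1 all rose in ASC-Is. Fcgr3, an activating receptor for IgG complexes that needs Fcer1g, had signals of 7.02, 6.85 and 5.57 in ASC-Ns, 6.05, 6.29 and 5.41 in ASC-Ls, and 7.67, 6.78 and 6.91 in ASC-Is. The lowest ASC-I array was above the highest ASC-L array, and the difference was 1.20 (SE 0.41). Fcgr4, an activating receptor for IgG2a and IgG2b in mice whose promoter is printed above, had signals of 5.49, 5.83 and 4.27 in ASC-Ns, 4.61, 5.47 and 5.10 in ASC-Ls, and 6.66, 6.39 and 5.48 in ASC-Is. Its ASC-I replicate 3 lay just above the highest ASC-L array, and the difference was 1.12 (SE 0.44). Fcgr2b, the inhibitory receptor for IgG that recruits Inpp5d, had signals of 7.38, 7.01 and 5.84 in ASC-Ns, 6.70, 5.92 and 5.99 in ASC-Ls, and 8.94, 6.37 and 7.71 in ASC-Is. Here ASC-I replicate 2 lay below ASC-L replicate 1, so that the stages overlapped, and the difference was 1.47 (SE 0.62). The coding sequences of Fcgr2b and Fcgr3 are alike outside the cell, and how far their probes share signal was not tested. Fcgr1, the high-affinity receptor on chromosome 3, was 6.99, 7.03 and 5.24 in ASC-Ns, 5.61, 5.73 and 5.50 in ASC-Ls, and 6.90, 6.17 and 5.41 in ASC-Is, which overlapped, and the difference of 0.55 (SE 0.50) did not pass.

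Lilr4b and Lilrb4a, neighbors on chromosome 10, had the largest rises of the genes grouped as inhibitory. Lilrb4a (gp49B) carries inhibitory motifs in its tail, while Lilr4b (gp49A) is a close relative that lacks them and stands in the group by name. Lilr4b was 9.28, 8.78 and 6.67 in ASC-Ns, 7.37, 6.91 and 7.19 in ASC-Ls, and 10.15, 8.00 and 8.85 in ASC-Is, with no overlap between ASC-Is and ASC-Ls (log2 difference 1.84, SE 0.69). Lilrb4a was 8.91, 8.63 and 6.48 in ASC-Ns, 7.35, 6.32 and 7.49 in ASC-Ls, and 9.43, 7.83 and 8.68 in ASC-Is, again with no overlap (log2 difference 1.59, SE 0.66). Because the genes are so alike, the probe sets may read each other's transcripts, so that the values of the pair, both counted among the 12, are not independent. Clec12a, an inhibitory receptor for uric acid crystals from dead cells, was 5.66, 5.67 and 4.49 in ASC-Ns, 3.91, 3.87 and 3.76 in ASC-Ls, and 5.84, 3.84 and 5.69 in ASC-Is. The ASC-L arrays were nearly equal, and ASC-I replicate 2 lay among them while the other ASC-I arrays were higher by over 1.5 units, with a difference of 1.27 (SE 0.51). Pilra, an inhibitory receptor for sialylated glycoproteins, was 7.46, 7.05 and 7.03 in ASC-Ns, 6.81, 6.73 and 6.62 in ASC-Ls, and 7.66, 7.13 and 7.69 in ASC-Is. Its arrays varied little within a stage and did not overlap between ASC-Is and ASC-Ls, and its difference of 0.77 (SE 0.18) had the lowest unadjusted p of the 65 genes.

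The remaining rises were in activating receptors of the TREM and CD300 families. Trem1, which pairs with Tyrobp and amplifies inflammatory responses of neutrophils and monocytes, was 5.81, 5.58 and 4.59 in ASC-Ns, 4.89, 4.61 and 4.62 in ASC-Ls, and 5.90, 5.38 and 5.68 in ASC-Is, with no overlap between ASC-Is and ASC-Ls (log2 difference 0.95, SE 0.29). Cd300ld, whose promoter is printed above, was 5.61, 5.26 and 4.47 in ASC-Ns, 4.39, 4.13 and 4.61 in ASC-Ls, and 5.45, 5.08 and 4.93 in ASC-Is, without overlap between ASC-Is and ASC-Ls (log2 difference 0.78, SE 0.28). Cd300c2, which signals with Tyrobp, was 5.93, 5.57 and 5.45 in ASC-Ns, 5.05, 5.26 and 5.25 in ASC-Ls, and 6.56, 5.58 and 5.72 in ASC-Is, which did not overlap with ASC-Ls (log2 difference 0.77, SE 0.25). Cd300ld and Clec12a are the genes of the 12 whose mean over the arrays did not exceed the olfactory receptor level.

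**Figure D2:**
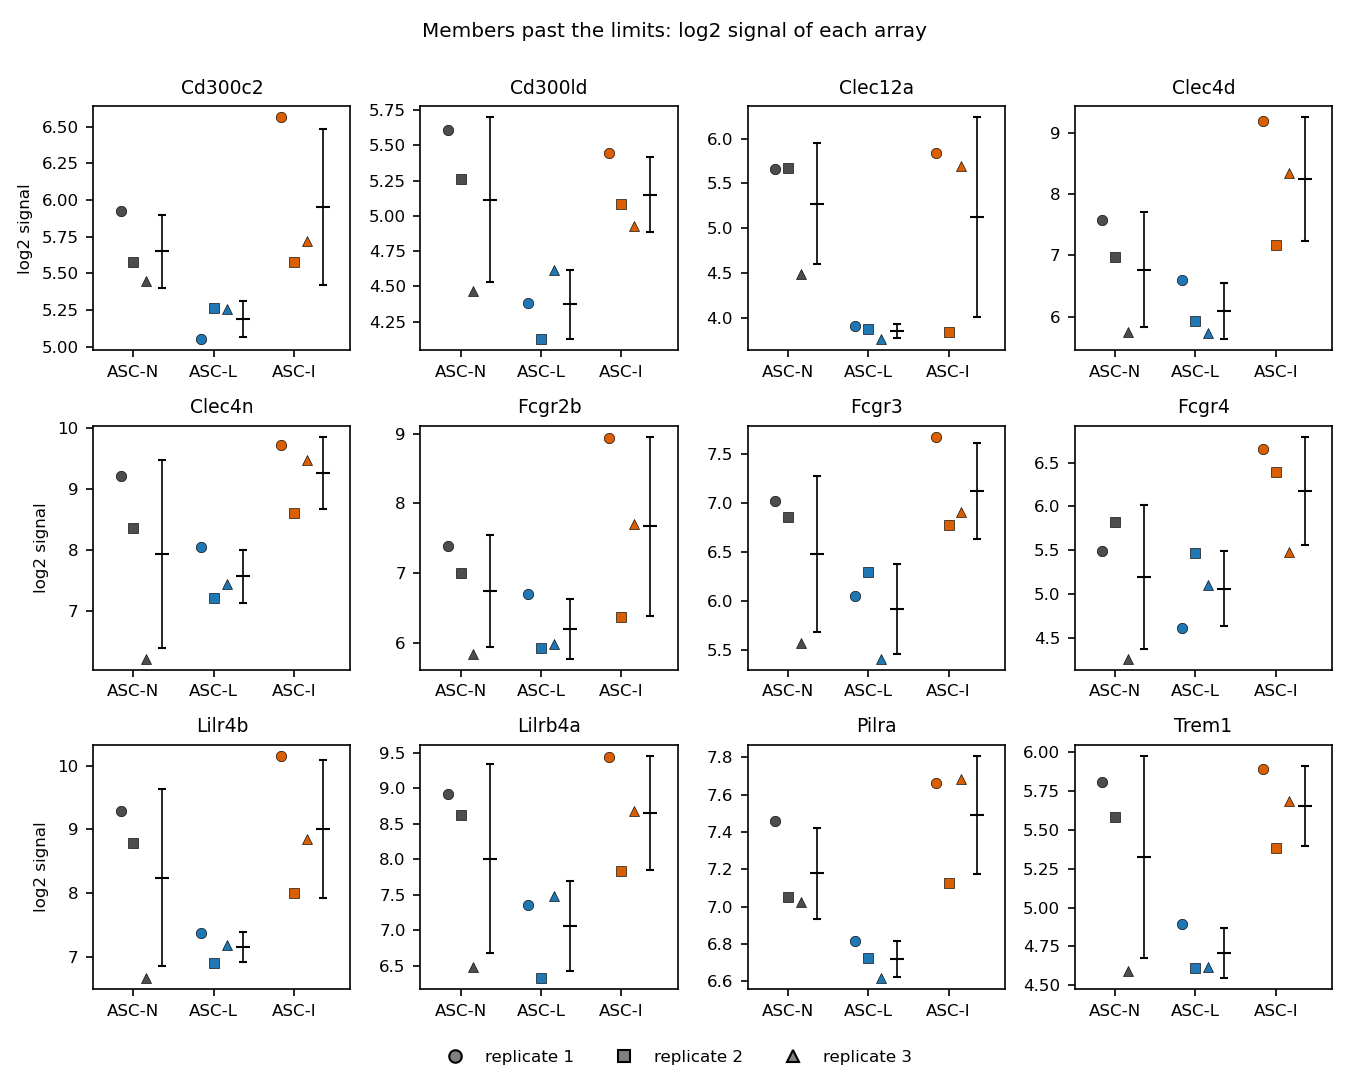
Log2 signal of the 12 genes past the limits on each array, by stage (symbols mark the replicate number, bars the mean and SD of 3 arrays). For 10 of the 12 genes, which were chosen by this difference, the lowest ASC-I array lies above the highest ASC-L array (2.6% of all genes). The ASC-N arrays are widely spread, with replicate 3 lowest of its stage for all 12 (32.4% of all genes).

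A few further members were close to the limits. Siglec1, or sialoadhesin, an adhesion receptor of tissue macrophages, was 6.17, 6.01 and 5.68 in ASC-Ns, 5.68, 5.33 and 5.60 in ASC-Ls, and 6.77, 5.57 and 6.05 in ASC-Is, and the difference between ASC-Is and ASC-Ls was 0.60 (SE 0.28). Trem2, a lipid receptor that pairs with Tyrobp, and Pilrb1, the activating partner of Pilra, were named after their values were seen, as were Siglecf and Lilra5. Trem2 was 7.13, 6.46 and 6.61 in ASC-Is and 6.34, 5.95 and 6.27 in ASC-Ls. Pilrb1 was 5.31, 5.34 and 5.70 in ASC-Is and 4.69, 4.83 and 5.22 in ASC-Ls. Neither gene overlapped between these stages, but each differed by 0.54 (SE 0.20 for Trem2 and SE 0.17 for Pilrb1), which is under 1.5-fold. In all, 14 receptor genes were higher in every ASC-I array than in every ASC-L array, where 2.6% of all genes were, and 2 were lower in every ASC-I array, where 2.96% of all genes were. The pair that was lower was Siglecf, an inhibitory Siglec of eosinophils and alveolar macrophages, and Clec1a, a lectin of endothelial and dendritic cells. Clec1a was 4.57, 4.57 and 4.90 in ASC-Is against 5.02, 5.17 and 5.18 in ASC-Ls (log2 difference -0.44, SE 0.16), also under 1.5-fold.

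By role, 7 of the 26 measured activating receptors rose in ASC-Is against ASC-Ls and 18 had a positive difference, with a median of 0.54. Over all genes, 0.406% rose and the median was -0.01. Of 16 receptors grouped as inhibitory, 5 rose and 13 had a positive difference, with a median of 0.24. None of the 4 uptake and adhesion receptors, the 8 Clec2 ligands, the 8 lectin-like proteins outside myeloid cells or the 3 genes given no role passed, and the medians of these groups lay between -0.02 and 0.16. Genes of 1 family lie close together, so that the members are not independent of each other. Along the genome, the 3 neighbors Fcgr2b, Fcgr4 and Fcgr3 and the pair Lilr4b and Lilrb4a all rose, while 2 of 9 genes of the Clec4 group and 1 of 13 genes of the group that holds Clec2, Clec12a and Clec7a on chromosome 6 rose. Likewise 2 of 7 neighbors of the Cd300 group on chromosome 11, 1 of 6 of the Trem group on chromosome 17 and 1 of 3 of the Pilr group on chromosome 5 rose, and 0 of the 3 neighboring Siglec genes on chromosome 7 did.

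The number of genes that rose depended on single arrays. ASC-I replicate 1 was the highest of all 9 arrays for 10 of the 12 genes, and for 13.4% of all genes. Without that array 4 receptor genes passed, 3 of them from the 12 (Clec4d, Pilra and Trem1). The share of all genes past the limits in either direction was then 0.181%, against 0.482% with all arrays. Without ASC-L replicate 2 the number of receptor genes was 6 (0.492% of all genes), namely Clec4d, Cd300c2, Fcgr3, Fcgr4, Pilra and Trem1. Without ASC-L replicate 3 the number was 9 (0.467% of all genes), of which 6 belonged to the 12. Of these 9 genes, 8 were higher in ASC-Is and 1, Clec2e, was lower. Without replicate 2 of both stages, the arrays with the high epithelial markers (a choice made after seeing the data), it was 10 (0.973% of all genes), of which 8 belonged to the 12. Same-numbered arrays of ASC-Is and ASC-Ls deviated from their stage means together, and with the replicate number as a block 14 receptor genes were higher (0.893% of all genes), the added ones being Siglec1 (0.60, SE 0.21) and Lilra5 (0.61, SE 0.20).

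Markers of macrophages differed in the same direction as the 12 receptors, whose higher mean in ASC-Is than in ASC-Ls follows from their choice. Of 16 macrophage markers, 8 rose in ASC-Is against ASC-Ls and 15 had a positive difference, with a median of 1.38, and 4 of 8 pan-leukocyte markers rose (median 0.85). Over all genes 0.406% rose, and the median was -0.01. The macrophage marker mean was 7.94, 7.85 and 5.93 in ASC-Ns, 6.65, 6.48 and 6.35 in ASC-Ls, and 8.71, 7.01 and 7.64 in ASC-Is, and the mean of the 12 receptors was 7.11, 6.80 and 5.57 in ASC-Ns, 5.98, 5.72 and 5.77 in ASC-Ls, and 7.77, 6.51 and 7.10 in ASC-Is. In both lists ASC-I replicate 1 was highest of all arrays and ASC-N replicate 3 was lowest. Markers of neutrophils, dendritic cells, B cells, T and NK cells and mast cells had no gene past the limits in any comparison, and of the 12 neutrophil markers, whose array means ran from 4.69 to 5.41, 4 lay above the olfactory receptor level. Other lists ran the opposite way in ASC-Is against ASC-Ls without a gene past the limits. The difference was negative for 12 of 13 luminal markers (median -0.82), 6 of 8 basal markers (median -0.66), 8 of 9 milk genes (median -0.32) and 10 of 10 endothelial markers (median -0.29), and positive for 6 of 9 stromal markers (median 0.11). The luminal markers were high in replicate 2 of ASC-Is and of ASC-Ls, and the part of these cells in the result was not tested.

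**Figure D3:**
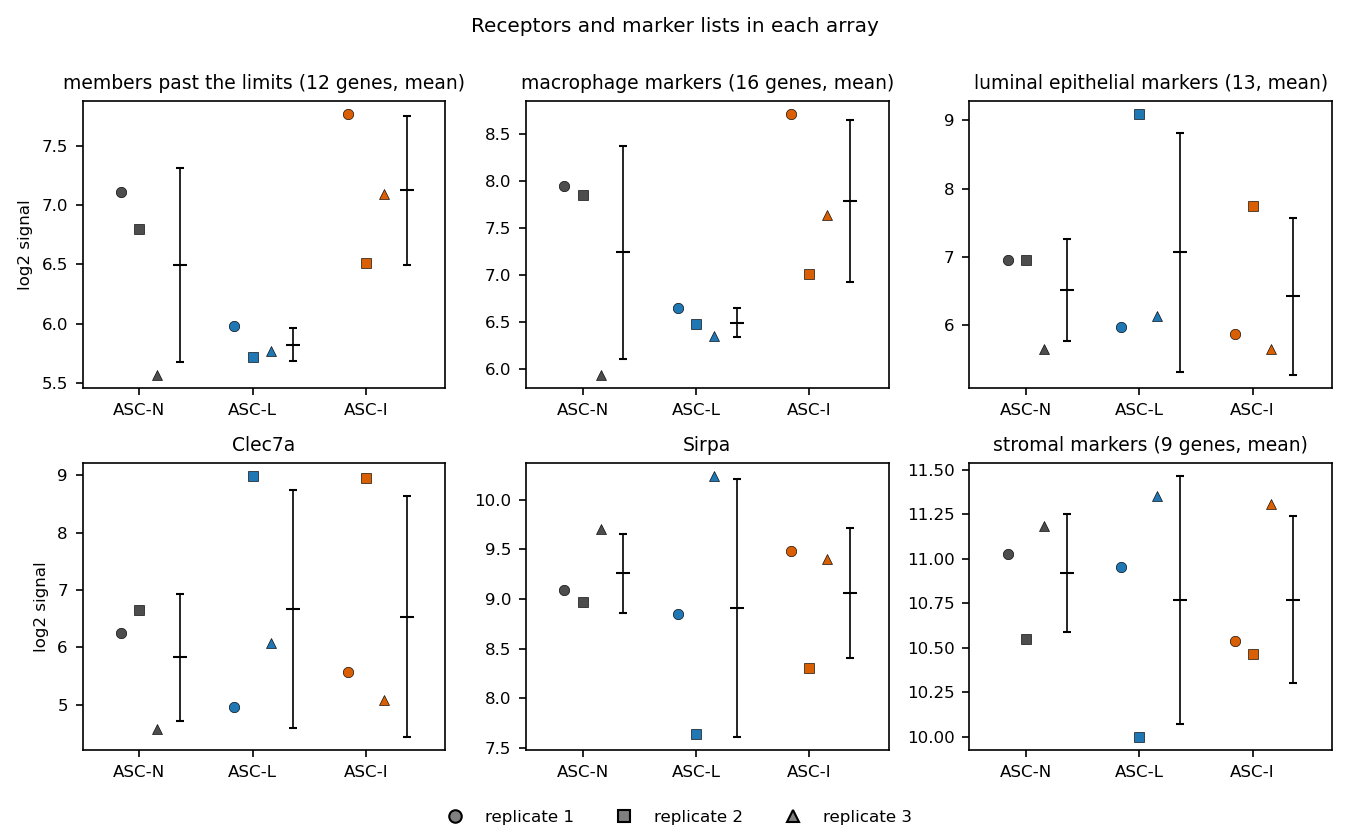
Log2 signal on each array of the mean of the 12 receptors past the limits, the macrophage, luminal epithelial and stromal marker means, and of Clec7a and Sirpa (symbols mark the replicate number, bars the mean and SD of 3 arrays, and each panel has its own scale). The 12 receptors are those that passed in ASC-Is against ASC-Ls, so their order of these stages follows from the choice. The macrophage markers have the same order of stage means. Clec7a is high in the arrays with high luminal markers, and Sirpa is lowest there.

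Clec7a and Sirpa varied more between arrays of 1 stage than between stages. Clec7a, or Dectin-1, the receptor for fungal beta-glucan that carries its own signaling motif, was 6.26, 6.66 and 4.58 in ASC-Ns, 4.95, 8.98 and 6.08 in ASC-Ls, and 5.57, 8.94 and 5.08 in ASC-Is. The high arrays were replicate 2 of ASC-Ls and of ASC-Is, which also had the high luminal markers, and no comparison passed (difference between ASC-Is and ASC-Ls -0.14, SE 1.22). Without both arrays the same difference was -0.19. Clec2e, a ligand of the Clec2 group, was likewise highest in ASC-L replicate 2, at 5.97 against 3.55 to 4.72 on the remaining arrays. Sirpa, the inhibitory receptor for Cd47, is also made by cells outside the blood lineage. It was 9.09, 8.97 and 9.71 in ASC-Ns, 8.85, 7.63 and 10.24 in ASC-Ls, and 9.48, 8.30 and 9.40 in ASC-Is. The same replicate 2 arrays were lowest for Sirpa, and its differences did not exceed 0.35 in size. Clec2d, the ligand of an inhibitory receptor of NK cells, was lowest there as well, at 7.14 in ASC-Is and 6.38 in ASC-Ls, against 7.46 to 8.30 on the remaining arrays. Clec5a, an activating receptor that pairs with Tyrobp, was 7.49, 7.17 and 4.39 in ASC-Ns, 5.08, 6.14 and 5.17 in ASC-Ls, and 7.04, 6.68 and 5.81 in ASC-Is, so that the lowest and the highest values were both from ASC-Ns.

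Lactation against the nulliparous state gave fewer differences. In ASC-Ls against ASC-Ns, 2 receptor genes fell and 0 rose, where 0.457% of all genes fell and 0.171% rose. Clec12a fell by 1.42 (SE 0.51), and all ASC-L arrays lay below 4, with all ASC-N arrays above it. Cd300ld fell by 0.74 (SE 0.28), with an overlap between ASC-N replicate 3 at 4.47 and ASC-L replicate 3 at 4.61. The means of Clec12a and Cd300ld over all arrays, 4.75 and 4.88, lay under the olfactory receptor level of 4.92. A further pair of genes had an unadjusted p under 0.05 with a difference under 1.5-fold, namely Pilra (-0.46, SE 0.18) and Clec10a (-0.39, SE 0.16), a galactose-binding uptake receptor of macrophages, which makes 4 of 65 where 3.64% of all genes had such a p. The arrays did not overlap for 4 genes that were lower in ASC-Ls (3.7% of all genes) and 1 that was higher (4.89% of all genes), so that these shares were near those of all genes. The median difference was -0.10, against 0.01 over all genes, and 1 of 16 macrophage markers fell. In the same comparison the stromal marker Pdgfra fell by 1.22 (SE 0.51) and the adipocyte marker Pparg by 0.96 (SE 0.24). The adipocyte marker Slc2a4, the luminal marker Elf3 and the milk gene Wap rose, by 0.65 (SE 0.12), 0.61 (SE 0.14) and 0.81 (SE 0.34). They were the only genes of their lists past the limits. The difference was negative for 6 of 9 stromal and 5 of 9 adipocyte markers, and positive for 13 of 13 luminal markers and 8 of 9 milk genes. ASC-L replicate 2 was the lowest array for Pdgfra (8.86) and the highest for Wap (6.90), and neither difference is given without it. The count of receptor genes depended on ASC-N replicate 3, the lowest ASC-N array for 34 of the 65 genes, where 32.4% of all genes were lowest in it. Without that array 11 receptor genes were lower in ASC-Ls, while the share of all genes past the limits in either direction was 1.77%, against 0.627% with all arrays. The count was 0 when ASC-N replicate 1 was left out. It was 1 without ASC-L replicate 2, namely Clec12a. Without ASC-N replicate 2 it was also 1, but this was Clec11a, and neither Clec12a nor Cd300ld passed.

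The fewest receptor genes passed between involution and the nulliparous state. In ASC-Is against ASC-Ns, Clec4d alone rose (log2 difference 1.48, SE 0.57), where 0.0702% of all genes rose, and 0 receptor genes fell, where 0.181% did. The ASC-I arrays of Clec4d overlapped with those of ASC-Ns, since ASC-I replicate 2 at 7.18 lay below ASC-N replicate 1 at 7.58. At an unadjusted p under 0.05 there were 3 genes (1.56% of all genes), namely Clec4d, Pilrb1 (0.44, SE 0.17) and Clec1a (-0.45, SE 0.16). The arrays did not overlap for 3 genes that were higher in ASC-Is (3.89% of all genes) and 1 that was lower (2.65% of all genes). Fcgr4 and Clec4n had the next largest differences of the named genes, of 0.99 (SE 0.44) and 1.34 (SE 0.67), without passing. Clec4d did not pass without ASC-I replicate 1 (1.00), without ASC-I replicate 3 (1.42) or without ASC-N replicate 3 (0.97), and without ASC-N replicate 3 Cd300lf and Fcgr1 were lower in ASC-Is instead. The 3 comparisons share arrays, so that the values of a gene in one are not independent of those in another.

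**Figure D4:**
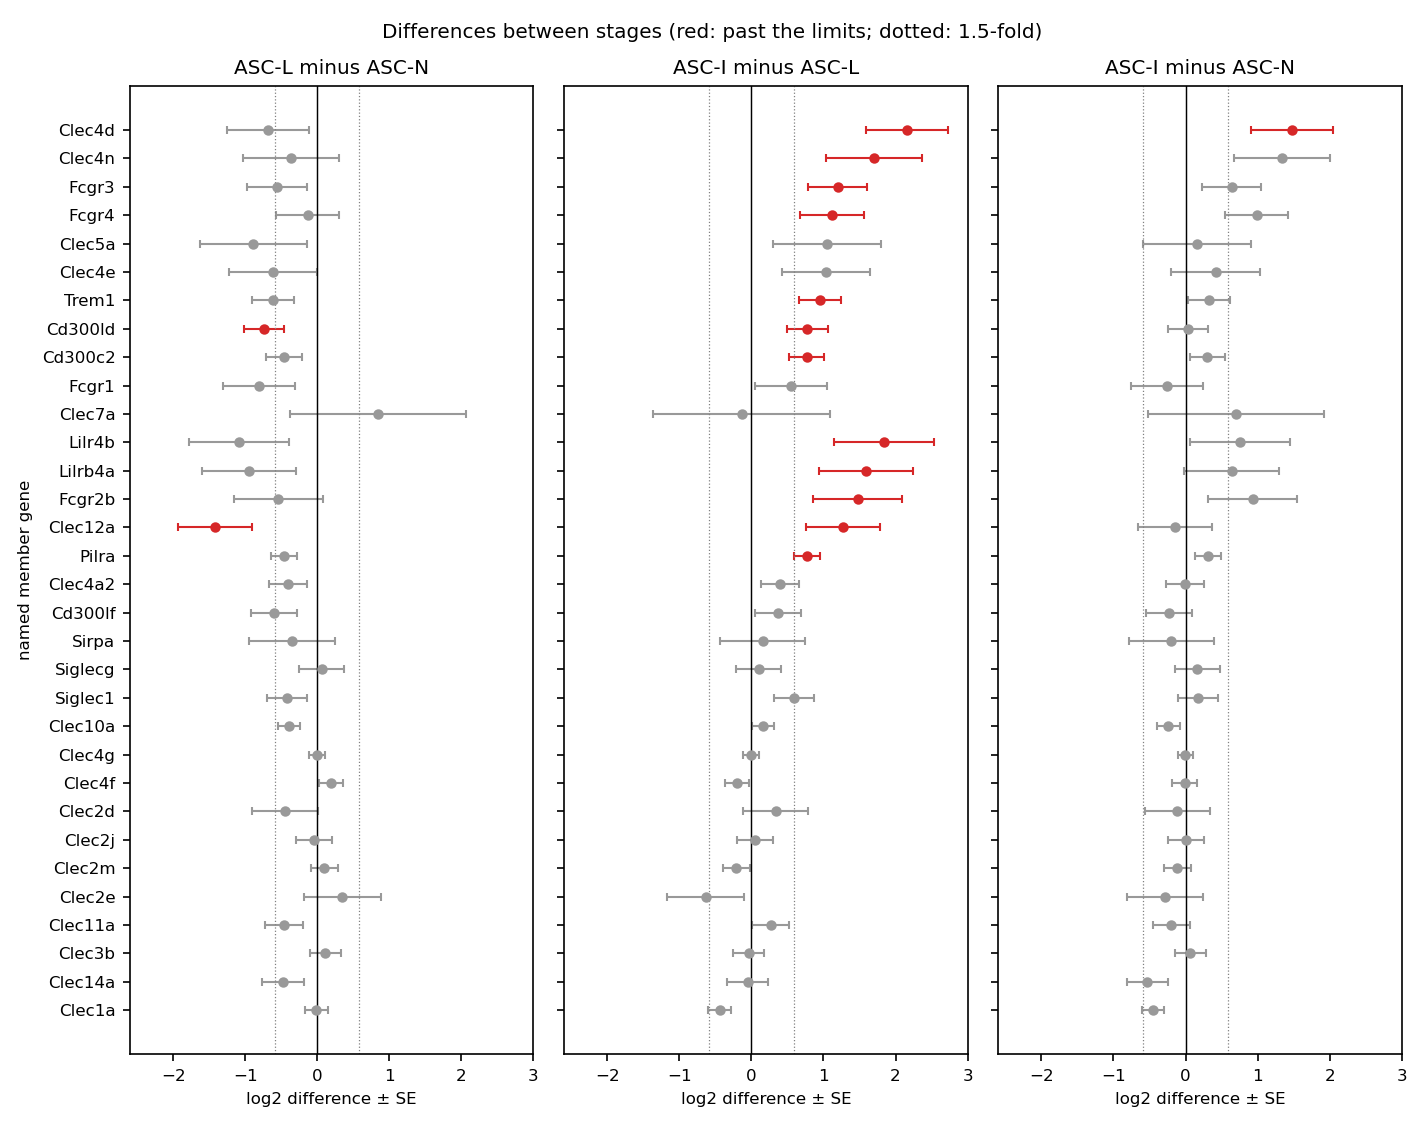
Log2 differences with their standard errors for the named genes in the 3 comparisons (later stage minus earlier, red for genes past the limits, dotted lines at 1.5-fold). The red points of ASC-I minus ASC-L all lie to the right of 0, those of ASC-L minus ASC-N to the left, and Clec4d is the single red point of ASC-I minus ASC-N.

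Partners of the receptors were followed as well. Of 16 measured adaptors and kinases, 3 rose in ASC-Is against ASC-Ls, where 0.406% of all genes did. These were Tyrobp, the kinase Btk and the adaptor Lcp2. A positive difference was found for 12 of the 16, and the median was 0.29. Tyrobp was 7.36, 7.12 and 5.64 in ASC-Ns, 6.06, 6.14 and 5.84 in ASC-Ls, and 8.17, 6.86 and 7.03 in ASC-Is, without overlap between ASC-Is and ASC-Ls (log2 difference 1.34, SE 0.47). Btk differed by 0.90 (SE 0.32) and Lcp2 by 0.78 (SE 0.33). Fcer1g was 8.16, 7.94 and 5.96 in ASC-Ns, 6.56, 6.47 and 6.08 in ASC-Ls, and 8.44, 7.01 and 7.26 in ASC-Is, also without overlap, but its difference of 1.20 (SE 0.57) did not pass. None of the 6 phosphatases that bind inhibitory receptors passed in any comparison. Among 12 ligands, Apoe, a lipid carrier bound by Trem2, rose by 1.95 on the log2 scale (SE 0.75) in ASC-Is against ASC-Ls, with values of 12.13, 9.31 and 9.65 in ASC-Is and 8.58, 8.64 and 8.03 in ASC-Ls. It is itself an abundant product of macrophages. Cd47, the ligand of Sirpa, differed by 0.28 (SE 0.32) between these stages. Hmgb1, a nuclear protein released from dying cells, fell by 0.63 (SE 0.26) in ASC-Ls against ASC-Ns, where 0.457% of all genes fell. Its arrays overlapped, with ASC-N replicate 3 at 6.61 and ASC-L replicate 2 at 6.85.

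The other named members did not pass in any comparison. The inhibitory receptors Cd300lf, Siglecg and Clec4a2 had differences between ASC-Is and ASC-Ls of 0.37 (SE 0.32), 0.10 (SE 0.31) and 0.40 (SE 0.26). Clec10a, Clec4f of liver macrophages and Clec4g of liver endothelium lay between 4.12 and 5.28 on all arrays. Of the Clec2 group, Clec2j and Clec2m lay between 4.43 and 5.48. Among the proteins outside myeloid cells, Clec14a of endothelium, the secreted growth factor Clec11a and the secreted plasminogen-binding protein Clec3b had differences of -0.05 (SE 0.29), 0.27 (SE 0.26) and -0.04 (SE 0.22). The 33 members not named by rule had an SD over the 9 arrays of at most 0.44, and their differences between ASC-Is and ASC-Ls ran from -0.22 to 0.61.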

How the data were processed

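Total RNA of mammary adipose stromal preparations was measured on Affymetrix Mouse Gene 1.0 ST arrays, 3 for each of 3 stages. The deposited values are log2 signals per probe set, which the authors normalized between arrays, by robust multi-array average in the study's methods, and with GCRMA and limma (no version given) going by the submitters' notes. No further normalization was applied, and raw array files and scan dates were not used here. Probe sets with several symbols (1621) or none (4965) of the 28348 were left out, and probe sets of 1 gene were averaged (21762 probe sets, 19930 genes). All 65 member symbols matched a RefSeq gene of GRCm38.p6.

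Each gene was fitted over all 9 arrays with stage means in limma 3.58.1 in R 4.3.3 (empirical Bayes, prior degrees of freedom 2.91) and tested on simulated data. A gene passed at an unadjusted p under 0.05 and at least 1.5-fold, and p-values were also adjusted by Benjamini-Hochberg over 19930 genes. The number of arrays limits the precision. Deviations of same-numbered ASC-I and ASC-L arrays from their stage means correlated in all pairs (r = 0.47, 0.73 and 0.46), so a fit blocked on these numbers is given beside that comparison. The membership rule, which uses symbols, and the gene lists were proposed with earlier results of these data known. Named were the members past the limits, up to 4 further members of each role list with the largest SD, the genes of the pathway lists past the limits (up to 4 a list), and Tyrobp, Fcer1g and Cd47. Marker lists were those of macrophages, pan-leukocyte cells, neutrophils, dendritic, B, T and NK and mast cells, and of endothelium, stroma, adipocytes, luminal and basal epithelium and milk. In ASC-Is against ASC-Ns, the endothelial, stromal, adipocyte, luminal, basal and milk lists had 1 gene past the limits, Pparg, which was lower by 0.83. Alternatives were other fits, normalizations, filters and left-out arrays.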

Additional observations from a re-analysis of the deposited data

How the results depend on the processing

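The counts of receptor genes past the limits were 2 for ASC-L against ASC-N, 12 for ASC-I against ASC-L and 1 for ASC-I against ASC-N. With single arrays left out, the counts ran from 0 to 11, from 4 to 15 and from 0 to 2 in these comparisons. For ASC-I against ASC-N, the count was 0 without ASC-I replicate 1 and 2 without ASC-N replicate 1, 2 or 3 or ASC-I replicate 2 or 3. Deviations of same-numbered ASC-L and ASC-N arrays correlated with r = -0.08, 0.40 and 0.45 for replicates 1, 2 and 3. Those of ASC-I and ASC-N arrays correlated with r = 0.07, 0.43 and 0.50, so that replicate 1 alone was near 0. The replicate block gave 4 genes for ASC-L (1.48% of all genes) and 4 for ASC-I (0.452%) against ASC-N. Array weights gave 12 for ASC-L against ASC-N (1.56% of all genes, 0.627% without weights) and 2 for ASC-I against ASC-N (0.938%, 0.251% without weights). In ASC-L against ASC-N, the count was 0 with only genes above the olfactory receptor level and 1 without the lowest 25% by mean signal, and all probe sets gave 2 in ASC-I against ASC-N. Without replicate 2 of ASC-L and ASC-I (chosen after seeing the data) the counts against ASC-N were 1 for ASC-L and 3 for ASC-I. Subtracting the macrophage marker mean of each array shifts the differences of all genes by the same amount, so its results show only how each difference compares in size with that of the markers. The counts against ASC-N were then 1 for ASC-L and 0 for ASC-I, 10 genes were lower and 0 higher in ASC-I against ASC-L, where 20.8% of all genes passed, and the median differences were 0.65 for ASC-L against ASC-N, -1.14 for ASC-I against ASC-L and -0.48 for ASC-I against ASC-N. By that shift alone, the sign turned for Cd300ld in ASC-L against ASC-N (0.010) and, in ASC-I against ASC-L, Cd300c2 (-0.53), Cd300ld (-0.52), Clec12a (-0.020), Fcgr3 (-0.10), Fcgr4 (-0.18), Pilra (-0.52) and Trem1 (-0.35). Over the alternatives, genes that passed kept their direction and side of the limits in 263 cases, did not pass in 53 and turned sign in 8, all by that shift. The cause of the other changes was not tested. Signal over background and probe cross-hybridization could not be judged from these values.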

Other observations

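Receptor genes of the same families on probe sets with several symbols were not among the 65 genes. A pair of probe sets for Cd300ld3, Cd300ld4 and Cd300ld5 differed by 0.71 (SE 0.24) and 0.67 (SE 0.22) on the log2 scale between ASC-Is and ASC-Ls by limma. The 4 probe sets for Sirpb1a, Sirpb1b and Sirpb1c, activating relatives of Sirpa, differed by 0.32 to 0.41, each under 1.5-fold. A pair shared by Pira genes, Pirb and Lilra6, the paired immunoglobulin-like receptors of mice, differed by 0.64 (SE 0.37) and 1.02 (SE 0.55).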
